A study of Mus musculus with 12 samples.

Results

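The genes described here are 9 genes known from macrophages of lymph node sinuses and medulla, namely Siglec1, Marco, Cd163, Cd5l, Adgre1, Vcam1, Timd4, Mrc1 and Lyve1. They were taken by name, as a list of node macrophage genes that had been seen to differ in direction in these data, so that finding both directions among them is not a result. They are 9 of 52355 genes to which the deposited transcripts were summed, and all 9 were among the 23729 genes that passed the filter on low counts. Their RNA was measured in mouse cells selected for CD11c from the inguinal lymph node (LN), in 12 libraries of bulk RNA sequencing that form 3 groups of 4.

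In the group TdLN_CD40 the mice carried a subcutaneous KPC tumor, the node drained that tumor, and a CD40 agonist was given, which stimulates the CD40 receptor of dendritic cells, macrophages and B cells. The group TdLN held tumor-draining nodes without the agonist. The group Healthy_iLN held inguinal nodes of mice with neither tumor nor agonist. KPC tumor cells come from a mouse model of pancreatic cancer. The sources used here do not give the agonist's dose or timing, a control treatment, the strain and age of the mice, the gate that selected the cells, or whether animals were pooled. No group received the agonist without a tumor, so that the agonist was compared only between tumor-draining nodes, or together with the tumor against healthy nodes. The labels do not say that libraries came from separate animals, and p-values therefore measure the spread between these libraries, which may be technical in part.

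Macrophages of the node line the subcapsular and medullary sinuses, where they take up particles, microbes and dead cells from lymph and hand antigen on to B cells and dendritic cells. They do so with scavenger receptors and lectins, several of which are among the genes described here, and some of these macrophages, together with macrophages of the T cell zone, carry CD11c. Several of the genes are also made by other cells: Vcam1 by endothelial and reticular cells, Lyve1 and Mrc1 by lymphatic endothelium, and Mrc1 and Adgre1 by some dendritic cells and monocytes. Cd5l differs from the rest in that its product is secreted.

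Total estimated counts per library were between 32626784 and 56320661, and mitochondrial genes took 1.23% to 4.75% of a library. Itgax, which encodes CD11c, averaged 731 ± 130 CPM (counts scaled to the size of the library) in agonist libraries, 968 ± 188 CPM in tumor-draining libraries and 832 ± 209 CPM in healthy libraries (SD, n = 4 each). The conventional dendritic cell genes Flt3, Zbtb46 and H2-Aa were detected in every group, at means of 157 CPM or more, and these 4 genes were chosen for naming after their values were seen. Each library title carries a prefix that 1 library of each group shares. The libraries of a prefix have the same replicate number below, and they deviated together, as described with the processing. Results were therefore also computed with the prefix as a block, and these values are given where they change the call of 1 of the 9 genes or the counts of a gene list.

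In mouse build GRCm38 with the GENCODE M21 annotation, Siglec1 lies at chr2:131069220-131086765 and Mrc1 at chr2:14229392-14332057, Marco at chr1:120474538-120505024, Cd163 at chr6:124304656-124330527 and Cd5l at chr3:87357881-87371073. Vcam1 lies at chr3:116109949-116129688, Adgre1 at chr17:57358691-57483527, Timd4 at chr11:46810800-46844332 and Lyve1 at chr7:110850607-110863239. Values are for whole genes, summed over their transcripts. Only Vcam1 and Mrc1 overlap another annotated gene, the antisense gene Gm43109 and the microRNA gene Mir511, which drew 76 and 3 counts over all libraries.

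RefSeq promoter sequences of the same genome (GRCm38.p6) were at hand for 5 of the 9 genes, Marco, Cd163, Cd5l, Timd4 and Mrc1. Those of Cd5l, Marco and Cd163 are shown because, of these 5, the first 2 had the largest rises with the agonist and Cd163 the largest fall. Capitals mark the PU.1 core GAGGAA, read on the other strand as TTCCTC, and the MAF half-site TGCTGA, read on the other strand as TCAGCA. PU.1 and the MAF factors are transcription factors of macrophages.

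Cd5l: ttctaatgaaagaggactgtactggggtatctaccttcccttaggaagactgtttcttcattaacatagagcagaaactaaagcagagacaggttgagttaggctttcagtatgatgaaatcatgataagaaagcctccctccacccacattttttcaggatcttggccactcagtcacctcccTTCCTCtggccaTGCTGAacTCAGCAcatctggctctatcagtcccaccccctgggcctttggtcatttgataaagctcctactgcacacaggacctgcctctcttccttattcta

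Marco: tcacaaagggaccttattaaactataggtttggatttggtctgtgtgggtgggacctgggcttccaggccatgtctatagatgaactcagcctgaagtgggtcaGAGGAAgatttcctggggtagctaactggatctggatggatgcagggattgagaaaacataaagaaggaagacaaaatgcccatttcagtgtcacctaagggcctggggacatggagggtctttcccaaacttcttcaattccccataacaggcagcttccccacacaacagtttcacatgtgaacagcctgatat

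Cd163: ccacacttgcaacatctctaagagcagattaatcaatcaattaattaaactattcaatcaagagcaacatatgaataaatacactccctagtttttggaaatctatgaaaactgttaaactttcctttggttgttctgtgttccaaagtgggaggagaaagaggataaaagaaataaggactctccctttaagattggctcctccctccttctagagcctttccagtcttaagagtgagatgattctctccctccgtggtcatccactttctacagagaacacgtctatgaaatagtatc

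The stretches are chr3:87357631-87357930 on the plus strand for Cd5l, chr1:120504975-120505274 on the minus strand for Marco, and chr6:124304401-124304700 on the plus strand for Cd163, each of 300 bases around the RefSeq transcript start and written 5′ to 3′ in the direction of the gene. With the start counted as position 0, the Cd5l promoter held 1 PU.1 core at -66 and MAF half-sites at -54 and -46. The Marco promoter held 1 PU.1 core at -146. None of the searched motifs was found in this window of Cd163. The Timd4 promoter held MAF half-sites at -150 and -44 and the interferon-stimulated response element core GAAANNGAA at -77, and the Mrc1 promoter held PU.1 cores at -180, -167 and -35. An NF-kB motif was searched as well and was in none of the 5. The motifs were searched on both strands and do not overlap at these matches. Of 32544 promoters of this length in the table, 28.1% held the PU.1 core, 19.5% the MAF half-site, 8.53% the interferon element core and 8.49% the NF-kB motif.

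The first comparison, TdLN_CD40 minus TdLN, asks what the agonist does in the tumor-draining node. Siglec1, Marco, Cd5l and Vcam1 were higher in agonist libraries, between 2.18-fold and 4.15-fold, and Cd163 was 2.85-fold lower. Adgre1 and Mrc1 had lower means in agonist libraries, Timd4 a higher one and Lyve1 nearly the same, and none of these passed the test. In all, 4 of the 9 genes rose and 1 fell, at a Benjamini-Hochberg adjusted p under 0.05 over all genes in edgeR's quasi-likelihood test, where 1.85% of all tested genes rose and 0.83% fell (2.68% in either direction). The median log2 fold change was 0.46 over the 9 genes and 0.02 over all genes. With the prefix as a block 4 rose and 2 fell, where 6.74% of all genes rose and 6.58% fell (13.3% in either direction). The libraries of the groups did not overlap for 6 of the 9 genes, 4 higher and 2 lower, against 8.26% of all genes (4.86% higher, 3.4% lower). In such bulk libraries, fewer cells of a type and less RNA per cell cannot be told apart.

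**Figure D1:**
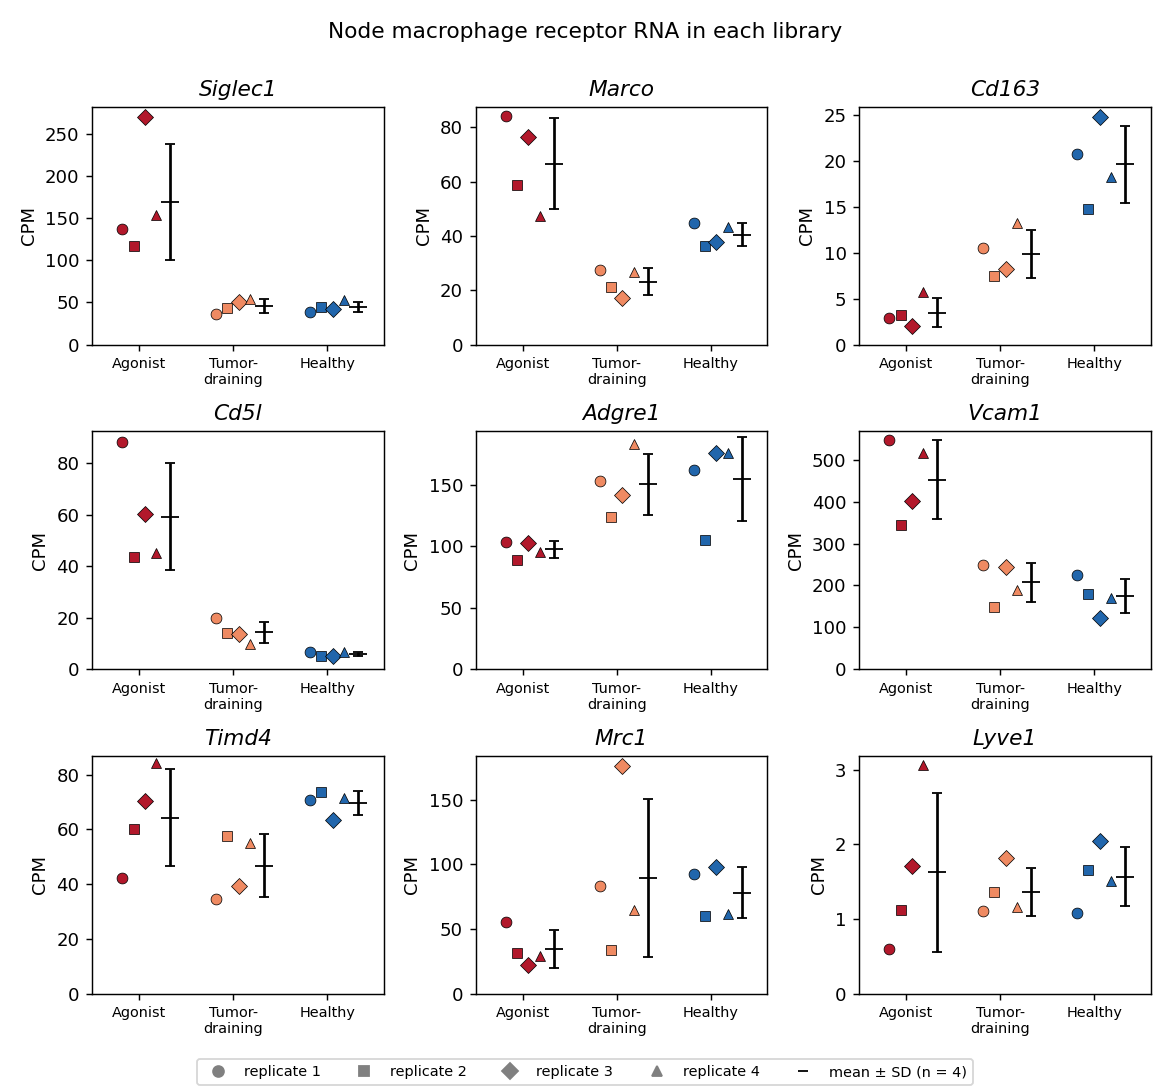
RNA level of each gene in CPM (linear axes from 0) in the 4 agonist, 4 tumor-draining and 4 healthy libraries. Symbols mark the replicate number, and bars show the mean ± SD (n = 4). All 4 agonist libraries lie above both other groups for Siglec1, Marco, Cd5l and Vcam1 and below both for Cd163 and Adgre1.

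Siglec1 (CD169) is a lectin that binds sialic acid on cells, vesicles and viruses and is the classical marker of sinus macrophages. Agonist replicates 1 to 4 had 137, 117, 270 and 153 CPM, tumor-draining replicates 35.8, 43.8, 50.3 and 54.6 CPM, and healthy replicates 38.8, 44.6, 42.2 and 52.8 CPM. The lowest agonist library was above the highest of both other groups, and agonist replicate 3 was the highest of all. The log2 fold change of agonist over tumor-draining libraries was 1.88 (SE 0.23, adjusted p = 0.00118), with the agonist library higher in 4 of 4 prefix pairs. Tumor-draining and healthy libraries overlapped, at means of 46.1 ± 8.20 and 44.6 ± 5.99 CPM (SD, n = 4 each), a log2 fold change of 0.05 (SE 0.23, adjusted p = 0.959) whose sign turned with the scaling. Against healthy libraries the agonist value was 1.92 (SE 0.23, adjusted p = 0.000271).

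Marco is a class A scavenger receptor of medullary and marginal zone macrophages that binds bacteria and charged particles. It had 84.2, 58.7, 76.5 and 47.2 CPM in agonist replicates 1 to 4, 27.6, 21.2, 17.1 and 26.8 CPM in tumor-draining replicates, and 44.7, 36.2, 37.6 and 43.4 CPM in healthy replicates. The 3 groups did not overlap, with tumor-draining libraries lowest and agonist libraries highest. The log2 fold change was 1.52 for agonist over tumor-draining libraries (SE 0.19, adjusted p = 0.00134), and all 4 pairs showed it. Tumor-draining libraries were lower than healthy libraries in 4 of 4 pairs, with a log2 fold change of -0.81 (SE 0.19, adjusted p = 0.116, and 0.0353 with the block). Agonist libraries were above healthy ones by 0.72 on the log2 scale (SE 0.19, adjusted p = 0.0366). That last call was lost when agonist replicate 1 or 3 or any 1 healthy library was left out, at adjusted p between 0.0625 and 0.115. It was also lost with library totals as scaling (0.0766) and in limma with voom weights. Among the alternatives other than leaving out a library, its highest adjusted p was 0.0990.

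Cd5l encodes a secreted protein of the scavenger receptor cysteine-rich family, made by tissue macrophages, carried in blood by IgM, and known in mouse macrophages as a target gene of the oxysterol receptor LXR. It had 88.3, 43.4, 60.3 and 44.9 CPM in agonist replicates 1 to 4, 19.8, 13.9, 13.7 and 9.61 CPM in tumor-draining replicates, and 6.55, 4.96, 5.16 and 6.63 CPM in healthy replicates. No library of a group overlapped another group, and the order was agonist, tumor-draining, healthy in each prefix. The agonist libraries stood 4.15-fold above the tumor-draining ones (log2 fold change 2.05, SE 0.25, adjusted p = 0.000972). The tumor-draining libraries were 2.45-fold above the healthy ones (log2 fold change 1.29, SE 0.25), which missed the threshold without the block (adjusted p = 0.0526) and passed it with the block (0.00704). Leaving out agonist replicate 1 gave an adjusted p of 0.0465 for that difference, and leaving out tumor-draining replicate 4 gave 0.0210. Between agonist and healthy libraries Cd5l showed the largest change among the 9 genes, 10.2-fold (log2 fold change 3.35, SE 0.26, adjusted p = 1.48e-05).

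Cd163, the receptor for haemoglobin bound to haptoglobin and a member of the same cysteine-rich family, ran the other way. It had 2.93, 3.19, 2.0 and 5.69 CPM in agonist replicates 1 to 4, 10.5, 7.44, 8.23 and 13.3 CPM in tumor-draining replicates, and 20.7, 14.7, 24.8 and 18.2 CPM in healthy replicates. The groups were again apart, with healthy libraries highest, and in every prefix the order was healthy, tumor-draining, agonist. Replicate 4 was the highest library of the agonist group and of the tumor-draining group. The log2 fold change of agonist over tumor-draining libraries was -1.51 (SE 0.29, adjusted p = 0.0113), and it was not called on log2(TPM + 1) or log2(TPM + 0.1), at adjusted p of 0.0722 and 0.0579. Tumor-draining libraries were lower than healthy ones by a log2 fold change of -0.99 (SE 0.28, adjusted p = 0.225, and 0.0466 with the block). For agonist over healthy libraries the value was -2.51 (SE 0.30, adjusted p = 0.000249), a level 5.68-fold lower. Counts behind these values were 95 to 260 in agonist libraries, 343 to 583 in tumor-draining libraries and 526 to 1296 in healthy libraries.

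Vcam1 encodes an adhesion molecule that holds leukocytes through their alpha-4 integrins, and resident macrophages of spleen, marrow and node carry it. Agonist replicates 1 to 4 had 547, 345, 402 and 516 CPM, tumor-draining replicates 248, 149, 243 and 189 CPM, and healthy replicates 224, 180, 123 and 171 CPM. The agonist libraries were apart from both other groups, which overlapped each other. The log2 fold change was 1.13 for agonist over tumor-draining libraries (SE 0.21, adjusted p = 0.0114) and 1.37 for agonist over healthy libraries (SE 0.22, adjusted p = 0.00155). Between tumor-draining and healthy libraries it was 0.25 (SE 0.21, adjusted p = 0.801), higher in 3 of 4 pairs. Endothelial and reticular cells also make Vcam1. The 10 reticular stromal markers summed to 29.5 to 53.3 CPM in agonist, 25.5 to 47.3 CPM in tumor-draining and 22.4 to 43.7 CPM in healthy libraries. The 12 lymphatic endothelial markers summed to 141 to 521 CPM in agonist, 151 to 229 CPM in tumor-draining and 173 to 263 CPM in healthy libraries. Both sums overlapped between the groups, and the part of these cells in the Vcam1 values was not tested.

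Adgre1 encodes F4/80, an adhesion receptor of the G protein-coupled class and the textbook surface marker of mouse macrophages. It had 103, 88.8, 103 and 95.8 CPM in agonist replicates 1 to 4, 153, 124, 142 and 183 CPM in tumor-draining replicates, and 162, 105, 176 and 176 CPM in healthy replicates. All agonist libraries lay below all tumor-draining and all healthy libraries, the nearest being healthy replicate 2. Over tumor-draining libraries the log2 fold change was -0.62 (SE 0.17), which missed the threshold without the block (adjusted p = 0.0680) and passed it with the block (0.00240), with 4 of 4 pairs lower. Leaving out healthy replicate 2 also brought it under the threshold (adjusted p = 0.0292). Agonist libraries were lower than healthy ones by a log2 fold change of -0.67 (SE 0.17, adjusted p = 0.0295), a call lost without agonist replicate 2, 3 or 4 or healthy replicate 1, 3 or 4, at adjusted p between 0.0639 and 0.0942. Tumor-draining and healthy libraries differed by -0.04 (SE 0.17, adjusted p = 0.951).

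Timd4, a receptor for phosphatidylserine with which resident macrophages bind dying cells, had 42.4, 60.2, 70.2 and 84.4 CPM in agonist replicates 1 to 4, 34.4, 57.7, 39.3 and 55.0 CPM in tumor-draining replicates, and 70.7, 73.5, 63.4 and 71.4 CPM in healthy replicates. Tumor-draining libraries were all below healthy libraries, and agonist libraries overlapped both groups. The log2 fold change was 0.46 for agonist over tumor-draining libraries (SE 0.20, adjusted p = 0.333), with the agonist library higher in 4 of 4 pairs. Tumor-draining over healthy libraries gave -0.58 (SE 0.20, adjusted p = 0.407), lower in 4 of 4 pairs, and agonist over healthy libraries -0.12 (SE 0.20, adjusted p = 0.849). None of these passed the test, with or without the block.

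Mrc1 (CD206) is the mannose receptor, a C-type lectin that takes up glycoproteins. Agonist replicates 1 to 4 had 55.6, 31.5, 22.0 and 29.0 CPM, tumor-draining replicates 83.5, 33.6, 176 and 64.6 CPM, and healthy replicates 92.8, 60.3, 97.9 and 61.5 CPM. Tumor-draining replicate 3 was the highest library, and replicate 2 of that group lay within the agonist range. The log2 fold change of agonist over tumor-draining libraries was -1.37 (SE 0.43, adjusted p = 0.143), lower in all 4 pairs by between 0.09 and 3.0 on the log2 scale, and -0.81 (adjusted p = 0.339) without tumor-draining replicate 3. Without tumor-draining replicate 2 it passed the threshold (-1.65, adjusted p = 0.0481). Agonist libraries did not overlap healthy libraries, but the log2 fold change of -1.18 (SE 0.43) missed the threshold (adjusted p = 0.157), and passed it only without tumor-draining replicate 3 among the fits that left out 1 library (adjusted p = 0.0407). Tumor-draining over healthy libraries gave 0.20 (SE 0.43, adjusted p = 0.912), and -0.37 without tumor-draining replicate 3.

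Lyve1, the hyaluronan receptor of lymphatic endothelium and of some tissue macrophages, was the least counted of the 9 genes, with 26 to 140 counts in a library. It had 0.604, 1.12, 1.71 and 3.06 CPM in agonist replicates 1 to 4, 1.10, 1.37, 1.81 and 1.16 CPM in tumor-draining replicates, and 1.08, 1.65, 2.04 and 1.5 CPM in healthy replicates. The agonist group held both the lowest and the highest library, and all groups overlapped. The log2 fold changes were 0.25 for agonist over tumor-draining libraries (SE 0.42, adjusted p = 0.920), -0.20 for tumor-draining over healthy libraries (SE 0.42, adjusted p = 0.904) and 0.05 for agonist over healthy libraries (SE 0.42, adjusted p = 0.971). Without agonist replicate 4, the first became -0.26 and the last -0.48. The 12 lymphatic endothelial markers summed to 141, 167, 177 and 521 CPM in agonist replicates 1 to 4, 151 to 229 CPM in tumor-draining libraries and 173 to 263 CPM in healthy libraries. Agonist replicate 4 was thus highest in both, and the part of that marker sum in the Lyve1 value was not tested. The sum mixes scarce and well detected genes: in agonist libraries Prox1 averaged 0.434 CPM, Ccl21a 86.4 CPM and Pecam1, which many leukocytes also make, 106 CPM.

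**Figure D2:**
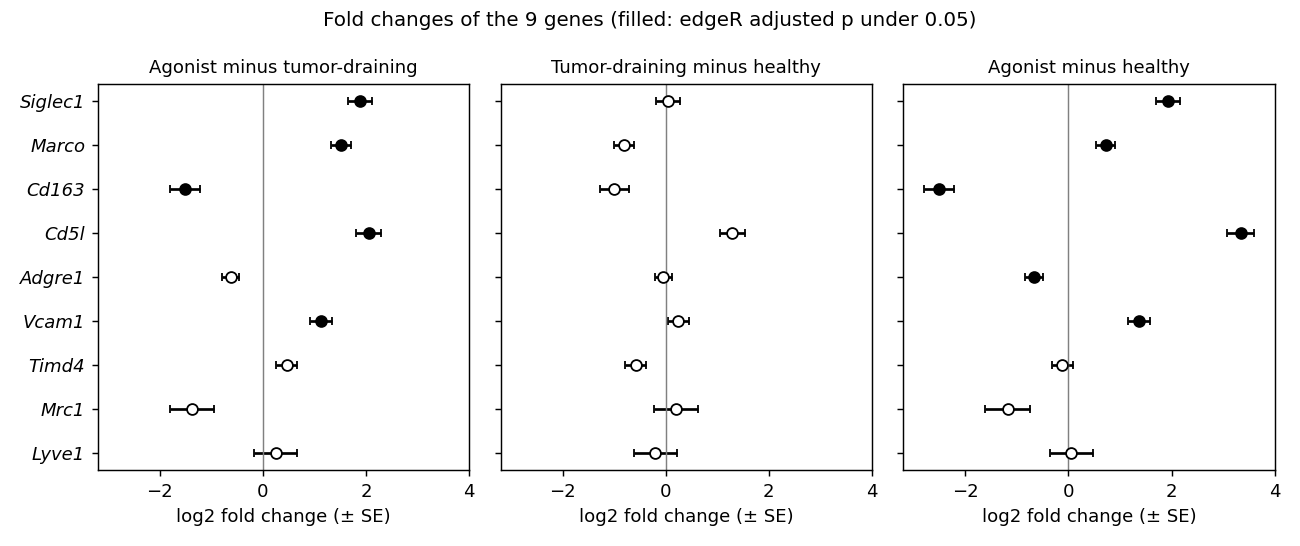
Log2 fold change ± SE of the 9 genes in the 3 comparisons, from edgeR with all 12 libraries and the group as the only term. Filled points have an adjusted p under 0.05: 5 of 9 for agonist minus tumor-draining, 0 of 9 for tumor-draining minus healthy and 6 of 9 for agonist minus healthy.

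The second comparison, TdLN minus Healthy_iLN, asks what draining a tumor does without the agonist. None of the 9 genes passed edgeR's test without the block, where 0.198% of all genes were called (0.181% higher, 0.0169% lower). At an unadjusted p under 0.05 there were 4, Cd5l higher and Marco, Cd163 and Timd4 lower, where 7.76% of all genes were under it, and these were also the 4 genes whose libraries did not overlap, against 4.26% of all genes (2.57% higher, 1.69% lower). DESeq2 called 2 of the 9, where it called 1.66% of all genes, and limma with voom weights 0. With the prefix as a block 3 of the 9 were called, Cd5l higher and Marco and Cd163 lower, where 6.3% of all genes were called (4.02% higher, 2.28% lower). The median log2 fold change of the 9 genes was -0.04, beside -0.02 over all genes. Siglec1, Adgre1, Vcam1, Mrc1 and Lyve1 overlapped between these groups and had log2 fold changes between -0.20 and 0.25.

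The third comparison, TdLN_CD40 minus Healthy_iLN, sets tumor and agonist together against neither. Siglec1, Marco, Cd5l and Vcam1 rose and Cd163 and Adgre1 fell, which is 6 of 9 genes, where 4.25% of all genes rose and 2.03% fell (6.28% in either direction). Libraries did not overlap for these 6 and for Mrc1, against 12.4% of all genes (7.6% higher, 4.75% lower). The block called the same 6, where 20.1% of all genes were called (11.7% higher, 8.46% lower). Between 4 and 7 of the 9 were called when 1 library was left out, the number being 4 without agonist replicate 3 or without healthy replicate 1, 3 or 4. The median log2 fold change was 0.05 over the 9 genes and -0.03 over all genes. Each pair of comparisons shares 1 group of libraries, so that the values of a gene in the 3 comparisons are not independent of each other, and whether the agonist's difference is unlike the tumor's was not tested.

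**Figure D3:**
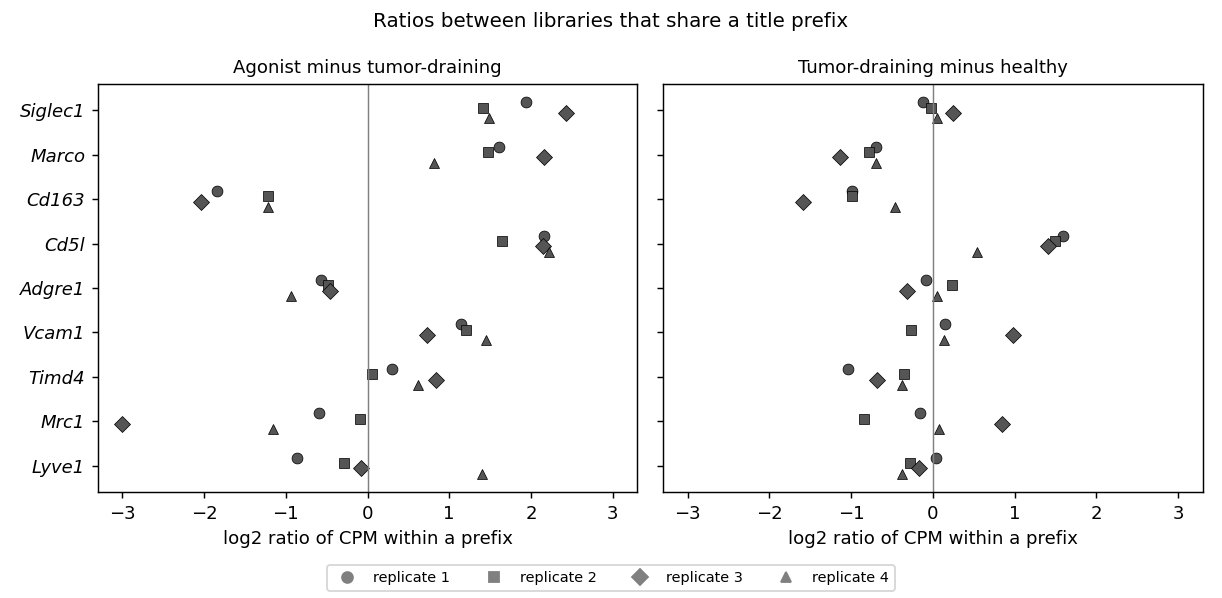
Log2 ratio of CPM between libraries with the same title prefix, for agonist over tumor-draining (left) and tumor-draining over healthy (right), with 1 symbol per prefix. On the left all 4 ratios are above 0 for Siglec1, Marco, Cd5l, Vcam1 and Timd4 and below 0 for Cd163, Adgre1 and Mrc1, and on the right all 4 are above 0 for Cd5l and below 0 for Marco, Cd163 and Timd4.

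Within a prefix, the ratios of agonist to tumor-draining libraries differed in how far they spread. For Cd5l they lay between 1.64 and 2.22 on the log2 scale, and for Adgre1 between -0.94 and -0.46. For Marco they lay between 0.82 in prefix 4 and 2.16 in prefix 3, and for Siglec1 between 1.41 in prefix 2 and 2.43 in prefix 3. Prefix 3 also had the lowest ratios of Cd163 (-2.04) and Mrc1 (-3.0), so that in this prefix Siglec1, Marco, Cd163 and Mrc1 all stood furthest from 0. Vcam1 had its smallest ratio in prefix 3 (0.72). For tumor-draining over healthy libraries, prefix 3 held the lowest ratios of Marco (-1.14) and Cd163 (-1.59) and the highest of Vcam1 (0.98) and Mrc1 (0.85).

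Levels of different genes were compared in TPM, a measure per length of transcript. In agonist libraries Vcam1 was highest, at 118 ± 22.5 TPM (SD, n = 4), and apart from every other gene. Marco (29.6 TPM), Timd4 (24.3), Adgre1 (22.4), Cd5l (21.2) and Siglec1 (17.4) followed as mean TPM, and neighbours in that order overlapped. Mrc1 (4.79 TPM) was apart from those above and below it, and Lyve1 (0.634 TPM) and Cd163 (0.633 TPM) came last and overlapped.

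In tumor-draining libraries the order by mean TPM was Vcam1 (53.5), Adgre1 (35), Timd4 (17.7), Mrc1 (12.7), Marco (10.9), Cd5l (5.32), Siglec1 (4.92), Cd163 (1.70) and Lyve1 (0.453). Neighbours overlapped between Vcam1 and Adgre1, among Timd4, Mrc1 and Marco, and between Cd5l and Siglec1. In healthy libraries it was Vcam1 (47.6), Adgre1 (37.1), Timd4 (27.1), Marco (17.0), Mrc1 (11.4), Siglec1 (4.94), Cd163 (3.55), Cd5l (2.25) and Lyve1 (0.745). There the first 3 overlapped as neighbours, as did Siglec1 and Cd163. Cd5l thus ranked above Cd163 in agonist and tumor-draining libraries and below it in healthy libraries, where their values did not overlap.

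**Figure D4:**
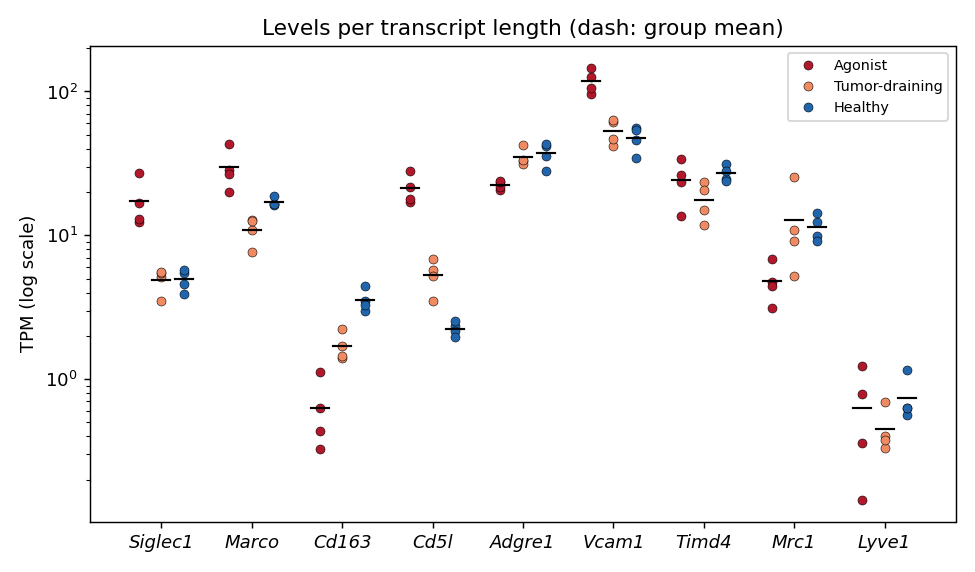
Level of each gene in TPM (log axis) in each library, by group, with dashes at the group means. Vcam1 is highest in each group, and Cd163 and Cd5l change places between agonist libraries (0.633 and 21.2 TPM) and healthy libraries (3.55 and 2.25 TPM).

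Ratios of 2 genes within a library do not depend on the scaling between libraries. The TPM of Cd5l was 15.8 to 66.5 times that of Cd163 in agonist libraries, 1.56 to 4.05 times in tumor-draining libraries and 0.443 to 0.773 times in healthy libraries, with no overlap between groups. Each of these 2 genes was already apart between the 3 groups, in opposite orders, so that their ratio could not overlap. Siglec1 over Cd163 was 14.9 to 82.9 in agonist, 2.07 to 3.77 in tumor-draining and 1.04 to 1.84 in healthy libraries, again without overlap. Marco over Mrc1 was 4.11 to 13.9 in agonist libraries and overlapped between the others, at 0.298 to 2.45 in tumor-draining and 1.16 to 2.03 in healthy libraries. These pairs of genes were chosen after their values were seen, and such a ratio shows unequal change of the 2 genes and not which of them changed.

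Over the 12 libraries, log2 CPM of Siglec1, Cd5l and Vcam1 went together (Pearson r of 0.84 for Siglec1 with Cd5l, 0.82 for Siglec1 with Vcam1 and 0.90 for Cd5l with Vcam1). Cd163 ran against all 3 of them (r of -0.86 with Siglec1, -0.94 with Cd5l and -0.80 with Vcam1). Timd4 and Lyve1 had no r beyond 0.53 in size with any of the others. These r describe 12 libraries that form 3 groups and share prefixes, and are given without p.

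Among 10758 protein-coding genes whose log2 CPM averaged 2 or more, the gene most like each of the 9, by the same r, was Pgpep1 for Siglec1 (0.98), Htra2 for Marco (0.91), Aqp3 for Cd163 (0.98), Ramp3 for Cd5l (0.97) and H2-Aa for Adgre1 (0.97). For Vcam1 it was Mertk (0.97), which encodes a receptor for the uptake of dying cells, and for the rest Ttc28 for Timd4 (0.91), Plekhf2 for Mrc1 (0.91) and Birc6 for Lyve1 (0.87). Next came Mocos and Rnf181 for Siglec1, Mlxip and Il23r for Marco, Cd209e and Abca6 for Cd163, Txn1 and Tnfrsf14 for Cd5l, Alox5ap and Rps4x for Adgre1, and Pld1 and C4b for Vcam1. They were 2510002D24Rik and Lzts2 for Timd4, Slc25a17 and Dab2 for Mrc1, and Mtmr10 and Mrtfb for Lyve1. With the mean of each prefix subtracted, H2-Aa and Rps4x stayed among the 3 most like Adgre1, Pld1 among those of Vcam1 and 2510002D24Rik among those of Timd4, and for the other 6 genes no gene was shared.

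Of 23 other tested genes of tissue macrophages, 7 rose and 0 fell with the agonist over tumor-draining libraries in edgeR, and 10 rose with the block. At an unadjusted p under 0.05, 14 were higher and 0 lower. Their median log2 fold change was 0.75, beside 0.02 over all genes. The called genes with the smallest p were Hmox1, the haem oxygenase (120 ± 51.4 CPM in agonist and 38.9 ± 6.68 CPM in tumor-draining libraries; log2 fold change 1.62, SE 0.23, adjusted p = 0.00244), Nr1h3, which encodes an LXR (1.25, SE 0.21, adjusted p = 0.00659), and Axl, a receptor for dying cells (1.17, SE 0.22, adjusted p = 0.00954). The count was 4 without agonist replicate 3, without agonist replicate 4 or without tumor-draining replicate 4, and 3 without tumor-draining replicate 2. DESeq2 called 12 of them and limma with voom weights 9, all higher. Over all 23729 genes of this comparison edgeR called 2.68%, the block 13.3%, DESeq2 1177 genes and voom 636. Of all genes 3059 had an unadjusted p under 0.05. The same values stand behind the other lists in this comparison.

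Over healthy libraries, 12 of these 23 rose with tumor and agonist together and 0 fell, in edgeR and in limma with voom weights. The counts were 13 and 0 in DESeq2, 17 and 0 with the block, and 16 and 0 at an unadjusted p under 0.05. Among the 12 called by edgeR were Nr1h3 (171.5 ± 52.1 CPM in agonist and 51.1 ± 13.7 CPM in healthy libraries), Hmox1 and Spic, a transcription factor of iron-handling macrophages. Among these 23, edgeR called 0 for tumor-draining over healthy libraries, where 7 were higher and 2 lower at an unadjusted p under 0.05. DESeq2 called 1 higher and 1 lower there, limma with voom weights 0, and the block 3 higher and 1 lower. The smallest p was that of Cd209b (SIGN-R1), a lectin of medullary macrophages, at 50.9 ± 8.25 CPM in tumor-draining and 88.9 ± 13.5 CPM in healthy libraries (log2 fold change -0.80, SE 0.19, adjusted p = 0.112, and 0.0102 with the block). Cd209b belongs to a family of related genes, and whether reads were shared between them was not tested. Over all 23729 genes, agonist over healthy libraries gave 6.28% called by edgeR and 20.1% by the block. DESeq2 called 2154 genes there, voom 1406, and 4056 had an unadjusted p under 0.05. For tumor-draining over healthy libraries the shares were 0.198%, 6.3% and, by DESeq2, 1.66%, with 7.76% at an unadjusted p under 0.05. Voom called 1 gene there. These values hold for the other lists as well.

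**Figure D5:**
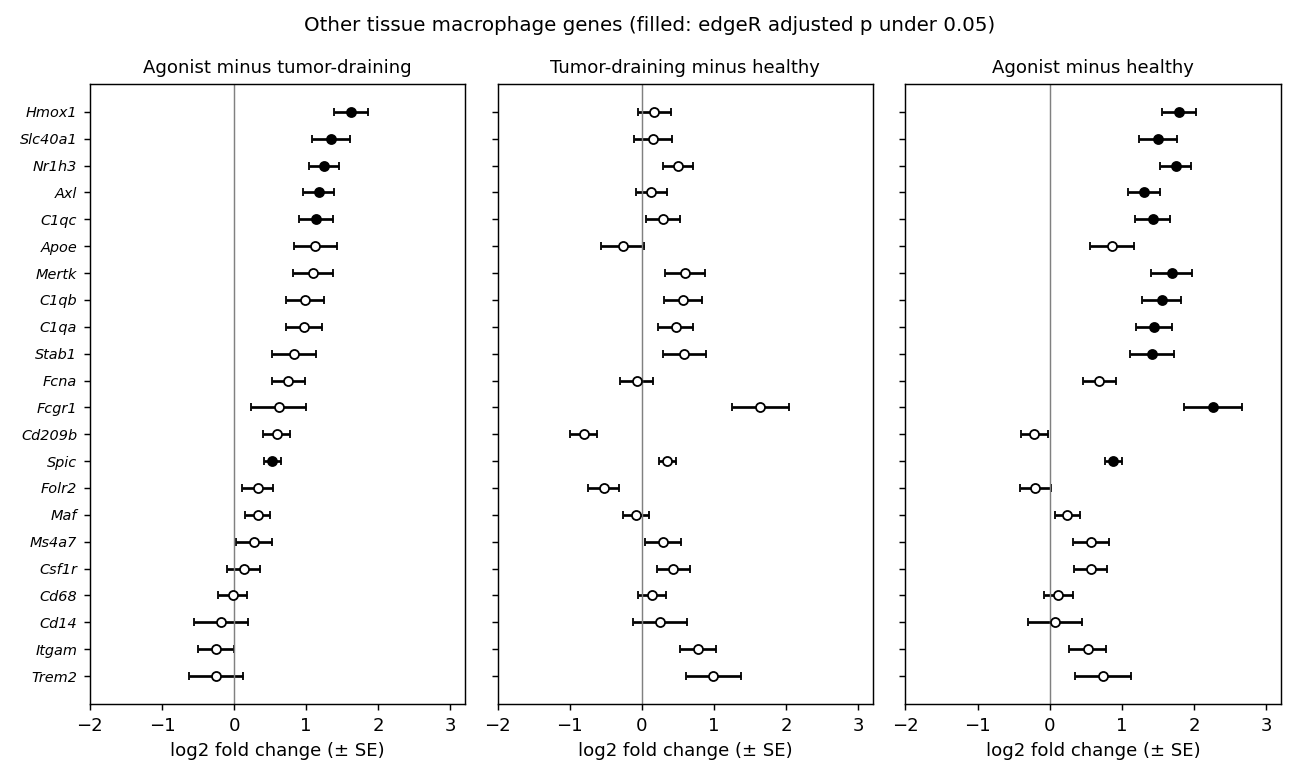
Log2 fold change ± SE of 22 of the 23 other tissue macrophage genes in the 3 comparisons, ordered by the first, with filled points at an adjusted p under 0.05 in edgeR. Among these 22 there are 6 filled points for agonist minus tumor-draining, 0 for tumor-draining minus healthy and 11 for agonist minus healthy, all above 0.

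Of 15 other scavenger receptors, 2 rose and 1 fell with the agonist over tumor-draining libraries (4 and 5 with the block). Lgals3bp, itself a cysteine-rich family protein (log2 fold change 1.43, SE 0.24, adjusted p = 0.00567), and Cxcl16, a membrane-bound chemokine that binds oxidised lipoprotein (0.78, SE 0.15, adjusted p = 0.0115), rose. Olr1, a lectin-like receptor for oxidised lipoprotein, fell to 1.58 ± 0.198 CPM in agonist libraries, against 4.26 ± 0.419 CPM in tumor-draining libraries (-1.43, SE 0.23, adjusted p = 0.00531). Over healthy libraries 4 rose and 2 fell with tumor and agonist (7 and 4 with the block), with Olr1 and Cd36, a fatty acid receptor, lower and Lgals3bp higher. No scavenger receptor was called by edgeR for tumor-draining over healthy libraries (3 at an unadjusted p under 0.05, 1 by DESeq2 and 0 by voom), with the smallest p for Msr1, a class A relative of Marco (1.67, SE 0.36, adjusted p = 0.0844).

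Of 26 family relatives of the 9 genes, 2 rose with the agonist over tumor-draining libraries and 0 fell (4 and 6 with the block). These were Ly75 (CD205), a mannose receptor relative of dendritic cells (436 ± 65.8 CPM in agonist and 247 ± 25.4 CPM in tumor-draining libraries; log2 fold change 0.82, adjusted p = 0.00756), and Mag, a Siglec (1.15, adjusted p = 0.0168). At an unadjusted p under 0.05 there were 6 higher and 4 lower, and DESeq2 called 4 higher and 2 lower. Over healthy libraries Mag, Msr1, Ly75 and Mrc2 rose and Havcr2 fell with tumor and agonist (9 and 4 with the block). Without the agonist, edgeR called 0 of them over healthy libraries (8 at an unadjusted p under 0.05, 3 by DESeq2, 0 by voom, and 6 with the block).

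Among 17 ligands and partners of the 9 genes, 0 rose and 1 fell with the agonist over tumor-draining libraries (1 and 5 with the block). At an unadjusted p under 0.05, 1 was higher and 4 lower. DESeq2 called 0 higher and 3 lower, and voom 0 higher and 1 lower. The gene that fell in edgeR was Cd24a, a sialylated surface protein, at 103 ± 14.5 CPM in agonist and 204 ± 39.7 CPM in tumor-draining libraries (log2 fold change -0.98, SE 0.17, adjusted p = 0.00735). Jchain, the chain that joins IgM, which carries the Cd5l protein, rose in tumor-draining over healthy libraries (45.3 ± 28.5 and 4.58 ± 1.70 CPM, a log2 fold change of 3.3 with SE 0.46 and an adjusted p of 0.0253), the only call there (4 with the block). Over healthy libraries 2 rose and 2 fell with tumor and agonist (3 and 4 with the block). Without the block, Jchain and Hp, which encodes haptoglobin, rose (Hp at 10.5 ± 5.96 CPM in agonist and 1.73 ± 0.837 CPM in healthy libraries), and Cd24a and the integrin gene Itgb7 fell.

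Of 12 factors of the macrophage niche and their receptors, Csf1, the macrophage growth factor (55.0 ± 29.6 CPM in agonist and 23.3 ± 2.6 CPM in tumor-draining libraries; log2 fold change 1.24, SE 0.30, adjusted p = 0.0413, and 0.0936 with the block), and Lta, which encodes lymphotoxin alpha (1.05, SE 0.26, adjusted p = 0.0457), rose with the agonist. The count was 4 with the block, and 0 to 1 when any 1 library was left out. Over healthy libraries Csf1 (adjusted p = 0.0329, and 0.0982 with the block) and Csf2 rose with tumor and agonist, 7 rose with the block and 0 were called with library totals as scaling. In tumor-draining over healthy libraries 0 were called by edgeR, DESeq2 or voom, 1 had an unadjusted p under 0.05, and 2 were called with the block, Ltb having the smallest p (0.77, SE 0.30, adjusted p = 0.521).

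Of 15 macrophage transcription factors, 3 rose with the agonist over tumor-draining libraries and 0 fell (5 and 1 with the block). Among them were Nr1h3 and Spic (0.53, SE 0.12, adjusted p = 0.0292), which are also on the list of tissue macrophage genes. Over healthy libraries 4 rose and 0 fell (5 and 1 with the block), with Nr1h3, Spic and Cebpb among the 4. For tumor-draining over healthy libraries 0 were called by edgeR, DESeq2 or voom, 3 had an unadjusted p under 0.05, and 2 were called with the block, Spic having the smallest p (0.35, adjusted p = 0.374).

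Type I interferon induces Siglec1 in macrophages and monocytes, as background from mouse and human cells. Of 20 genes of the type I interferon response, 6 rose and 0 fell with the agonist over tumor-draining libraries (12 and 0 with the block, 8 and 0 in DESeq2, and 16 and 0 at an unadjusted p under 0.05), led by Oasl1 (44.0 ± 6.91 CPM in agonist and 14.8 ± 3.50 CPM in tumor-draining libraries; log2 fold change 1.57, SE 0.23, adjusted p = 0.00313), Ifi44 (1.12) and Rsad2 (0.94). The count was between 3 and 8 when 1 library was left out, 3 without agonist replicate 3 or without tumor-draining replicate 1 or 2. For tumor-draining over healthy libraries 1 rose, Oas2 (1.72, SE 0.32, adjusted p = 0.0475), and with the block 16 rose and 1 fell. There DESeq2 called 12 higher and 0 lower, limma with voom weights called 0, and 16 were higher and 1 lower at an unadjusted p under 0.05. In agonist over healthy libraries 18 of 20 rose, where 4.25% of all genes rose. Siglec1 overlapped between tumor-draining and healthy libraries, and the part of interferon in the Siglec1 values was not tested.

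Markers of other cells that a CD11c isolate could hold were counted in the same tests. Of 12 lymphatic endothelial markers and 10 reticular stromal markers, edgeR called 0 in each of the 3 comparisons, as did DESeq2 and voom, with at most 2 lymphatic and 4 stromal markers at an unadjusted p under 0.05. These 4 were in tumor-draining over healthy libraries, 3 higher and 1 lower, where 7.76% of all genes were under it. Of all genes edgeR called between 0.198% and 6.28% in the 3 comparisons, so that 0 of so few markers does not show them unchanged. With the block Stab2, an endothelial scavenger receptor (18.8 ± 5.36 CPM in agonist, 11.2 ± 1.71 CPM in tumor-draining and 14.1 ± 3.86 CPM in healthy libraries), rose in agonist over tumor-draining libraries (adjusted p = 0.00283, and 0.105 without the block) and over healthy libraries (0.0352, and 0.381 without the block). The lymphatic list held both scarce and well detected genes: Prox1 and Pdpn had means under 1 CPM in each group, whereas Pecam1, which many leukocytes also make, averaged 106 CPM in agonist, 115 CPM in tumor-draining and 134 CPM in healthy libraries. Ccl21a averaged 86.4 ± 99.4 CPM in agonist, 33.7 ± 15.2 CPM in tumor-draining and 39.0 ± 23.1 CPM in healthy libraries. These 4 genes were chosen for naming after their values were seen, and no marker on any list was at 0 in all libraries. Of 10 monocyte markers, Lyz2, which macrophages also make, rose with the agonist over tumor-draining libraries (5086 ± 865 and 3161 ± 297 CPM; adjusted p = 0.0450), a call lost whichever library was left out, and Ccr2 (132 ± 11.1 and 363 ± 64.5 CPM) and F13a1 (4.99 ± 1.43 and 11.5 ± 2.68 CPM) fell. Conventional dendritic cell markers summed to 18710 to 26548 CPM in agonist libraries, 26320 to 42230 CPM in tumor-draining libraries and 25781 to 41358 CPM in healthy libraries. Of these 13 markers Ccr7 rose and Cd209a and Clec9a fell with the agonist over tumor-draining libraries (2 and 9 with the block).

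The summed tissue macrophage genes were 3605 to 6227 CPM in agonist, 2168 to 3348 CPM in tumor-draining and 1999 to 3195 CPM in healthy libraries. Langerhans cell markers were 38.3 to 55.7 CPM in agonist, 63.0 to 122 CPM in tumor-draining and 138 to 163 CPM in healthy libraries, the same order as Cd163, and 0 of 5 rose and 3 fell in agonist over healthy libraries, Cldn1, Cd207 and Epcam. Neutrophil markers were 66.3 to 145 CPM in agonist, 55.2 to 188 CPM in tumor-draining and 28.4 to 40.1 CPM in healthy libraries, and of the 9 tested 3 rose in agonist over healthy libraries, Csf3r, Cxcr2 and Retnlg. The part of any of these sums in the values of the 9 genes was not tested.

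For the remaining lists, in agonist over tumor-draining libraries, Fcer2a rose among 8 B cell markers, Gzma rose and Klrd1 fell among 8 natural killer cell markers, and Cldn1 fell among the Langerhans cell markers. There edgeR called 0 of 6 plasmacytoid dendritic cell, 7 plasma cell, 10 T cell, 9 neutrophil and 4 eosinophil markers, with 2, 1, 1, 2 and 1 of them at an unadjusted p under 0.05 and 1, 0, 1, 0 and 1 called by DESeq2. The smallest p there were those of Tcf4 (log2 fold change -0.64, adjusted p = 0.177, and 0.00236 with the block), Irf4 (-0.44), Cd8a (-1.11, adjusted p = 0.112, and 0.0212 with the block), Mmp9 (-1.54) and Siglecf (-1.10), of which Irf4 also passed with the block (0.0202).

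In tumor-draining over healthy libraries Csf3r rose among neutrophil, Prg2 among eosinophil, and Jchain and Mzb1 among plasma cell markers. Of the monocyte, conventional dendritic, Langerhans, plasmacytoid dendritic, B, T and natural killer cell markers edgeR called 0, with 3, 1, 2, 0, 0, 5 and 4 at an unadjusted p under 0.05. DESeq2 called 2 monocyte markers and 1 T cell marker there, and voom none of these. The block called 1 monocyte, 1 conventional dendritic cell (Sirpa, adjusted p = 0.00236) and 1 B cell marker higher, 1 Langerhans cell marker lower, and 1 T cell marker higher and 3 lower, and of the plasmacytoid dendritic and natural killer cell markers 0. It called 5 neutrophil, 2 eosinophil and 3 plasma cell markers higher. In agonist over healthy libraries Lyz2 and Chil3 rose and Ccr2 and F13a1 fell among monocyte markers, Cd8a, Lef1, Cd3d and Cd3g fell among T cell markers, and Jchain and Mzb1 rose among plasma cell markers and Prg2 among eosinophil markers. Gzma rose and Klrd1 fell among natural killer cell markers, and of the conventional dendritic cell markers 1 rose, Ccr7, and 5 fell, with Cd209a and Clec9a first. The block called 8 neutrophil and 3 B cell markers higher there, 4 plasmacytoid dendritic cell markers lower, and T cell markers 1 higher and 7 lower, conventional dendritic cell markers 3 higher and 9 lower, monocyte markers 3 higher and 2 lower, plasma cell markers 3 higher and 1 lower, and natural killer cell markers 2 higher and 1 lower. In agonist over tumor-draining libraries it called natural killer cell markers 4 higher and 1 lower, B cell markers 3 higher, Langerhans cell markers 1 higher and 2 lower, and plasmacytoid dendritic cell markers 4 lower.

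Several calls among the lists were lost in edgeR without the block when 1 library was left out, in some cases a library of the group not compared. In agonist over tumor-draining libraries, Hmox1, Nr1h3, Axl, Lgals3bp, Olr1, Ly75, Cd24a, Oasl1, Ifi44, Rsad2, Ccr2, Ccr7 and Cd209a kept their call whichever of the 12 libraries was left out. Cxcl16 lost it without tumor-draining replicate 2. Mag lost it without agonist replicate 3 or tumor-draining replicate 1, 2 or 4, and F13a1 without agonist replicate 3 or tumor-draining replicate 3 or 4. Clec9a lost it in 6 of 12 such fits, Fcer2a in 7, Spic in 9, Cldn1 in 10, and Csf1 and Lta in 11. In edgeR with the block and all 12 libraries, Cxcl16, F13a1, Spic, Lta, Mag and Clec9a passed. Their adjusted p lay between 0.000353 and 0.00646, and Csf1 did not pass (0.0936). In tumor-draining over healthy libraries Jchain lost its call without tumor-draining replicate 1 or any 1 healthy library, Prg2 without any 1 healthy library, Mzb1 in 7 of 12 fits, Csf3r in 9 and Oas2 in 11. EdgeR with the block called Jchain (adjusted p = 0.00144), Prg2 (0.000365), Csf3r (0.0154) and Oas2 (0.0230) there. In agonist over healthy libraries Csf1, Csf2, Itgb7 and Cd3d lost it in 7 of 12 fits, Havcr2 and Cd3g in 8, Retnlg, Chil3 and Lef1 in 6, Klrd1 in 5 and Cd8a in 3. There Mrc2 lost it without healthy replicate 3 and Gzma without agonist replicate 3, and the other genes named there from the lists kept it. EdgeR with the block called Itgb7 (adjusted p = 0.000159), Havcr2 (0.00289), Csf2 (0.0104), Retnlg (0.000326) and Chil3 (0.0419) there, and not Csf1 (0.0982).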

How the data were processed

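Bulk RNA of node cells selected for CD11c was sequenced in 12 libraries, 4 per group, with groups and replicate numbers taken from the library titles. The labels' protocols name the Qiagen RNeasy Plus Micro kit for RNA and, for libraries that keep the strand, the NEBNext Ultra II Directional kit. The authors deposited estimated counts per transcript and TPM, made with Salmon on build mm10 per the submitters' processing notes, although both tables are named after the related program sailfish. The sources used here do not give its version, annotation or filters. Reads shared between transcripts are divided by a model in Salmon.

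Of 132374 transcripts, 131974 were matched to GENCODE M21 and summed to 52355 genes, and 400 with 0.116% to 0.147% of the counts were left out. Sums of expected counts were rounded. Totals were 32626784 to 56320661, and chi-square per degree of freedom was at least 27.7 in the 18 pairs of libraries within groups, so that no pair agreed within sampling noise.

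Genes were tested in R 4.3.3 with edgeR 4.0.16 (robust quasi-likelihood F test, TMM scaling, filterByExpr with a minimum count of 10, which left 23729 genes), with all 12 libraries and the group as the only term. Calls needed a Benjamini-Hochberg adjusted p under 0.05 over all genes. The standard error is the log2 fold change divided by the root of F. CPM used TMM library sizes, and log2 CPM a prior count of 2. Gene TPM is the sum over transcripts of the deposited TPM. Scripts were tested on simulated data.

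The prefix of the titles pairs the libraries: deviations from group means correlated over genes at 0.20 to 0.47 (median 0.39) in all 12 same-prefix pairs, and in the 36 others at -0.45 to 0.33 (median -0.24). The sources used here do not say what the prefix marks. With the prefix as a block the biological coefficient of variation was 20.7% (6 residual degrees of freedom), against 33.9% (9) without. Alternatives were this block, DESeq2 1.42.0, limma 3.58.1 with voom weights, other scalings, no filter, only the compared groups, TPM with pseudocounts of 1 and 0.1, and leaving out each library.

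The 9 genes, gene lists and rules were chosen with earlier results of these data known. All 9 genes are named. From each list, up to 3 called genes with the smallest p are named per comparison, or else the 1 with the smallest p, and for each of the 9 genes the 3 most like it by Pearson r. No set test was made. Values of some single genes of the lists, and 1 gene of a list in its figure, are not reported here.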

Additional observations from a re-analysis of the deposited data

How the results depend on the processing

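With the prefix as a block (the paired fit), the calls of Adgre1 in agonist over tumor-draining libraries and of Marco, Cd163 and Cd5l in tumor-draining over healthy libraries were gained, as given above, and no other call among the 9 genes changed. Of the 9 genes, 5 were called for agonist over tumor-draining libraries and 6 for agonist over healthy libraries, and these counts stayed within 1.5 times under each alternative. For tumor-draining over healthy libraries the count of 0 became 3 with the block, 1 with DESeq2's size factors, 1 without the filter, 2 with DESeq2, and 0 to 1 when 1 library was left out, the cause not being tested.

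Over all genes, agonist over tumor-draining libraries gave 635 calls (438 higher, 197 lower), and 3161 with the block, 1177 with DESeq2, 286 on log2(TPM + 1), 268 on log2(TPM + 0.1) and 323 to 547 without 1 library. With library totals as scaling the split was 496 higher and 424 lower. Tumor-draining over healthy libraries gave 47, and 1495 with the block, 395 with DESeq2, 75 without the filter, 25 with only the 2 groups compared, 1 with voom, 11 and 9 on log2(TPM + 1) and log2(TPM + 0.1), and 0 to 101 without 1 library. Agonist over healthy libraries gave 1490 (1009 higher, 481 lower), and 4781 with the block, 820 and 828 on the 2 TPM scales, 829 to 1535 without 1 library, and 941 higher and 798 lower with library totals. The causes were not tested, except that fewer samples enter where a library is left out.

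Of 567 values of single genes under an alternative, 509 kept direction and call, 18 lost the call, 19 gained it and 21 changed sign, none of these with a call. In tumor-draining over healthy libraries Siglec1 became -0.022 with library totals and -0.010 and -0.013 on log2(TPM + 1) and log2(TPM + 0.1), and lay between -0.043 (without tumor-draining replicate 4) and 0.14 when 1 library was left out. Mrc1 became -0.019 with voom and -0.044 and -0.063 on the TPM scales, and lay between -0.37 (without tumor-draining replicate 3) and 0.47 without 1 library, and Adgre1 between -0.19 and 0.042, above 0 without tumor-draining replicate 2 or healthy replicate 3 or 4. In agonist over healthy libraries Lyve1 became -0.061 with the block, -0.049 with library totals, -0.15 with voom and -0.13 and -0.43 on the TPM scales, and lay between -0.48 (without agonist replicate 4) and 0.32 without 1 library, and Timd4 between -0.30 and 0.033 (without agonist replicate 1). In agonist over tumor-draining libraries Lyve1 lay between -0.26 (without agonist replicate 4) and 0.53 without 1 library. Mrc1 was called by DESeq2 in both comparisons with the agonist (adjusted p of 0.00857 over tumor-draining and 0.0291 over healthy libraries). Depth limits Lyve1 most, with 26 counts in its lowest library.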

Other observations

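A shorter coding transcript of Siglec1, annotated with 17 exons beside the 21 of the main one, held 4.49% ± 2.68 of the gene's estimated counts in agonist libraries, 9.21% ± 4.24 in tumor-draining libraries and 10.8% ± 2.0 in healthy libraries (SD, n = 4 each), and was not tested between groups. Agonist libraries ranged from 2.29% to 7.93%, tumor-draining libraries from 4.53% to 14.5% and healthy libraries from 8.41% to 13.1%. Tumor-draining libraries overlapped both other groups, and agonist and healthy libraries did not overlap. The share of all genes with transcripts that separate in this way was not computed.

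The counting model did not divide the 2 coding transcripts of Cd163 steadily. The less counted of them took between 0% and 92.2% of the gene in agonist libraries and up to 93.5% and 55.7% in tumor-draining and healthy libraries, so that only the sum over transcripts was used above. A Cd163 transcript with a retained intron held 10.8% ± 7.5 in agonist, 6.24% ± 1.35 in tumor-draining and 8.35% ± 1.81 in healthy libraries. Single transcripts held all of the counts of Cd5l and Timd4, and the main transcripts of Marco and Mrc1 held 98.7% and 99.8% of the counts of their genes over all libraries.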
